A study of Mus musculus with 14 samples.

Results

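The comparison was between 3 reprogrammed clones labelled AID-null and the fibroblasts labelled AID-null from which such clones are made, measured with reduced representation bisulfite sequencing (RRBS), in which cytosine methylation is read from CpG-rich restriction fragments. It was made over the cytosine positions listed in all 4 libraries. These were 1413312 of the 2931072 positions listed in any of the 4, and of the 3990867 listed in any of the 9 RRBS libraries read for this work. After positions of extreme coverage were dropped, 1382110 autosomal positions were kept.

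The clones were mouse tail cells labelled AID-null that had been reprogrammed for 3 weeks with Oct4, Sox2, Klf4 and c-Myc and had been picked as clones at week 2. The fibroblasts were tail fibroblasts labelled AID-null that had not been reprogrammed, with 1 library. A bulk 3-week culture of the same label and clones and fibroblasts labelled wildtype, which were grown and reprogrammed the same way as far as the labels state, were used for side-by-side values. The labels give no strain, age, allele or number of animals, and they do not say whether the clones came from separate animals or cultures. Each p-value below therefore measures the spread between these 3 clones, which may be technical, and the lone fibroblast library is assumed to vary like the clones.

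AID is a cytidine deaminase best known for antibody diversification in B cells, and its deamination of cytosine has been proposed as a step in the removal of DNA methylation. Reprogramming turns a somatic cell into a pluripotent one, and methylation has to be removed from some genes and added to others on the way. CpG-rich gene starts are mostly unmethylated in all cells. Germline genes are a known exception, because many of them are kept silent in somatic cells by methylation of a CpG-rich start. Imprinted genes carry methylation on the copy from one parent only.

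Every direction below is for libraries as labelled. The cell type could not be checked by methylation, since only 1 of the 20 markers listed for the check, Col1a2, had a gene start among the tiles tested.

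Coverage summed over positions was 236887310, 229745779 and 296572452 in clones 1 to 3 and 222945430 in the fibroblast library; a read counts once at each position it covers. The median coverage per position was 98, 99 and 110 reads in the clones and 115 reads in the fibroblasts. Chromosome 1 held 6.71% of the coverage of clone 1, against 5.46% in clones 2 and 3 and 5.66% in the fibroblasts. Mitochondrial cytosines, which serve as a rough check of bisulfite conversion, were called methylated at 0.136%, 0.141% and 0.143% in the clones and 0.114% in the fibroblasts.

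Sequences of 4 gene starts show the kinds of start on which the comparison turned. They are 300 bases each, from 250 before to 50 after the start, taken from RefSeq (GRCm38.p6), on the strand of the gene, with CpG sites in capitals. Their mm9 positions were found by matching the spacing of their CpG sites to the positions in the files. Ddx4 and Mael are germline genes with a CpG-rich start, Igf2r is an imprinted gene with a CpG-rich start, and Hoxd4 has a CpG-poor start that was more methylated in the clones.
Ddx4, chr13:113442469-113442768, minus strand: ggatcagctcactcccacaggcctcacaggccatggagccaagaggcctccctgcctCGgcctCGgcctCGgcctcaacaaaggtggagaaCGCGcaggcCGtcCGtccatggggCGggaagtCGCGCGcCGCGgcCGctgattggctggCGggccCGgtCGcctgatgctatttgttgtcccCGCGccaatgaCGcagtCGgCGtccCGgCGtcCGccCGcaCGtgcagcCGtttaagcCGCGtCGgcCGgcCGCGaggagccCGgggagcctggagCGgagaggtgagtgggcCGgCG
Mael, chr1:168168826-168169125, minus strand: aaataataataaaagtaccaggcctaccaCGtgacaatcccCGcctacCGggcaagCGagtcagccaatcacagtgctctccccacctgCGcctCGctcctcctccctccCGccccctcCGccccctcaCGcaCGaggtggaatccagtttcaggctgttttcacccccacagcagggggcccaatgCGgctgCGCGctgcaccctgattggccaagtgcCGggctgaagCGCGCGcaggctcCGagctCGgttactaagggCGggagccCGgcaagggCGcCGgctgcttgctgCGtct
Igf2r, chr17:12962523-12962822, minus strand: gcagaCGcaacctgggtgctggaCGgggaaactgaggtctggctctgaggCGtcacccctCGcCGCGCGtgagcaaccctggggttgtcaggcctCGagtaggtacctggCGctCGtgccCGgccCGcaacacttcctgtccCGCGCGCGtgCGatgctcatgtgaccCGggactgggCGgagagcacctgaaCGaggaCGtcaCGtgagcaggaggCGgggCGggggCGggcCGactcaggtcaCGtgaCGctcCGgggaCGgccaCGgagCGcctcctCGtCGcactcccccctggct
Hoxd4, chr2:74559785-74560084, plus strand: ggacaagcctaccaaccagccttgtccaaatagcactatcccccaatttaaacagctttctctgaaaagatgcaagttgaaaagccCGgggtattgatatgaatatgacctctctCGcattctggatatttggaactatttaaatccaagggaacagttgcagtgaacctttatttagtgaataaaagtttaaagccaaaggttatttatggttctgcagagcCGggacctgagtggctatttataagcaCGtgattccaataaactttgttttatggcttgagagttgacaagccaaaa
The stretch of Ddx4 holds 38 CpG sites, that of Igf2r 34, that of Mael 24 and that of Hoxd4 only 4. Over the Ddx4 stretch methylation was 9.89%, 10.5% and 18.0% in the clones and 89.2% in the fibroblasts. Over the Mael stretch it was 12.3%, 12.5% and 28.8% in the clones and 90.6% in the fibroblasts. The Igf2r stretch was at 0.972%, 0.580% and 2.32% in the clones and 43.3% in the fibroblasts. The Hoxd4 stretch went the other way, with 71.2%, 69.3% and 77.0% in the clones and 18.2% in the fibroblasts. In all 4 stretches the clones lay on one side of the fibroblast library, and clone 3 was the most methylated clone.

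Methylation was lower on average in the clones labelled AID-null than in the fibroblasts, but far from evenly. The mean over autosomal positions was 27.4%, 24.96% and 31.5% in clones 1 to 3, against 32.8% in the fibroblasts, a change of −4.90 percentage points (SD 3.29 over the 3 clones). Pooled over reads, which gives deep positions more weight, the levels were 22.7%, 21.5% and 25.5% in the clones against 32.2% in the fibroblasts, a change of −9.00 points. No test was made of these means, because an exact permutation of 3 libraries against 1 cannot go below 0.25 one-sided. Clone 3 lay nearest to the fibroblasts on every autosome, and on chromosome 13 its change was only −0.0152 points. The X chromosome stood at 32.6%, 29.6% and 36.0% in the clones and 38.4% in the fibroblasts.

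Positions that were almost unmethylated in the fibroblasts mostly stayed so, while high positions spread downwards. Of the 768202 positions under 10% in the fibroblasts, 96.1%, 96.4% and 93.9% were under 10% in clones 1 to 3. Of the 331899 positions at 80% or more in the fibroblasts, 47.3%, 36.2% and 57.1% were still at 80% or more in the clones, and 4.86%, 6.26% and 2.17% had come under 10%. Most of the highly methylated positions that left the top class were therefore at intermediate levels.

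The same was seen in tiles of 1000 bases. Tiles with at least 3 positions listed in all 4 libraries numbered 115365, with a median coverage, summed over their positions, of 680, 694 and 736 in the clones and 772 in the fibroblasts. Split by their fibroblast level, the 26191 tiles under 10% averaged 3.78%, 3.41% and 5.77% in the clones and 1.49% in the fibroblasts. Tiles at 10 to 20% in the fibroblasts averaged 30.2%, 27.3% and 39.6% in the clones and 14.7% in the fibroblasts. Tiles at 90 to 100% averaged 72.5%, 66.8% and 79.2% in the clones and 94.0% in the fibroblasts. The clones thus lay above the fibroblasts in sparsely methylated tiles and below them in heavily methylated ones. The bins were cut on the fibroblast levels that also enter the difference, so this slope is a description.

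**Figure D1:**
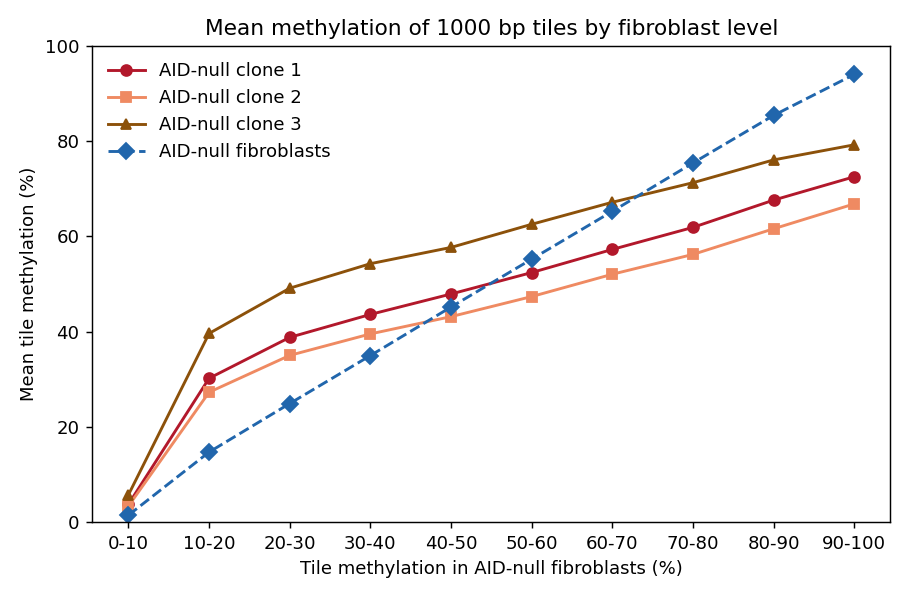
Mean methylation (%) of 1000 bp tiles in each AID-null clone (solid lines) and in AID-null fibroblasts (dashed line), by the level of the tile in AID-null fibroblasts (%). The 3 clones lie above the dashed line up to 30-40% and below it from 70-80% on, where the tiles of 90-100% averaged 72.5%, 66.8% and 79.2% in the clones and 94.0% in the fibroblasts.

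Tiles were tested with a quasi-binomial model of the methylated and unmethylated reads, its dispersion taken from the spread between clones and moderated with limma. To be called, a tile had to pass 0.05 after Benjamini-Hochberg adjustment, and the mean of its clone levels had to lie 25 points or more from the fibroblast level. Of the 115365 tiles, 8106 fell (7.03%) and 3323 rose (2.88%) in the clones labelled AID-null. The tiles that fell averaged 20.6%, 17.1% and 32.1% in the clones and 79.4% in the fibroblasts. The tiles that rose averaged 73.3%, 68.6% and 80.4% in the clones and 21.3% in the fibroblasts. Without any test, all 3 clones lay at least 25 points below the fibroblasts in 10912 tiles (9.46%) and at least 25 points above in 5173 (4.48%). The number of calls rested on the clones and on the model: without clone 1, 3177 tiles fell and 1041 rose, without clone 3, 15915 fell and 3577 rose, and with no trend in the moderation of the dispersion none was called, with 27826 at an unadjusted p under 0.05.

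The clones differed among themselves in how far they had moved, and clone 3 was the most methylated in 73.8% of all tiles and in 87.3% of those that fell. Taken one clone at a time, 21332, 27980 and 11989 tiles were at least 25 points below the fibroblasts in clones 1 to 3, and 7585, 5966 and 11680 were at least 25 points above. Clone 2 had thus the most tiles below the fibroblasts and the fewest above, and clone 3 the reverse. Clones 1 and 2 were at least 25 points apart in 3559 tiles, clones 1 and 3 in 8627 and clones 2 and 3 in 16173. In 8609 tiles clones 1 and 2 were both lower by that much while clone 3 was not, against 153 such tiles for clones 1 and 3 and 517 for clones 2 and 3. Tiles at least 25 points higher in clone 3 alone numbered 4159, against 444 in clone 1 alone and 155 in clone 2 alone.

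Among heavily methylated tiles, those with more CpG positions fell more often. Of tiles at 80% or more in the fibroblasts, 8.31% fell where 3 to 5 positions were read, 14.6% with 6 to 10, 24.0% with 11 to 20 and 38.6% with 21 to 40 positions. The few densest tiles, 34 with more than 40 positions, averaged 23.2%, 18.9% and 32.6% in the clones and 90.4% in the fibroblasts. More positions also bring more reads, and the part of read depth in this order was not tested. Over all tiles, which include the many dense tiles with little methylation in the fibroblasts, 6.04% fell with 3 to 5 positions, 10.8% with 11 to 20 and 4.08% with 21 to 40. Tiles that rose made up 3.64% of all tiles of 3 to 5 positions, 1.62% of those of 11 to 20 and 0.0675% of those of 21 to 40.

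The largest single decreases emptied tiles that were almost fully methylated. The tile chr3:153568001-153569000, 7430 bases downstream of the nearest placed gene start, that of Rabggtb (a subunit of the enzyme that attaches geranylgeranyl groups to Rab proteins), stood at 1.33%, 0.360% and 2.94% in the clones and 94.6% in the fibroblasts over 13 positions (adjusted p = 2.77e-05). The tile chr5:77697001-77698000 stood at 2.03%, 1.43% and 5.99% in the clones and 95.7% in the fibroblasts over 19 positions (adjusted p = 2.43e-05), 139570 bases downstream of the nearest placed start. A tile next to the start of Jade1, chr3:41359001-41360000, stood at 5.99%, 1.93% and 9.83% in the clones and 96.0% in the fibroblasts. All 3 were nearly empty of methylation in every clone. Within 92 positions of the tile chr5:93371001-93372000, 44481 bases downstream of the start of Shroom3, levels were 5.49%, 2.78% and 10.6% in the clones and 96.3% in the fibroblasts. No annotation of the mm9 build was used, so only distances to placed gene starts can be given, and a nearer start may exist among those not placed.

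The 6 largest increases, from 70.7 to 76.0 points, were smaller than the 6 largest decreases, from −93.0 to −89.7 points. They lay 91081 to 308466 bases from the nearest placed start, and those decreases 156 to 139570 bases. The tile chr5:74168001-74169000 stood at 85.1%, 80.6% and 88.5% in the clones and 8.75% in the fibroblasts over 10 positions (adjusted p = 0.000616). The tile chr19:47355001-47356000 stood at 88.9%, 85.9% and 87.4% in the clones and 12.5% in the fibroblasts (adjusted p = 0.000535). The tile chr6:84217001-84218000 stood at 78.2%, 79.1% and 84.9% in the clones and 6.20% in the fibroblasts (adjusted p = 0.000503). In all 3 the clones lay close together and far above the fibroblasts. The other 3 increases chosen by the same rule ranged from 70.7 to 73.7 points.

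Most called tiles did not adjoin another tile called in the same direction. The number of called tiles with a tested neighbour was not counted, so the spacing of the fragments read may account for this. The 8106 tiles that fell formed 7340 runs of adjoining tiles, 690 of them of 2 or more, and the 3323 that rose formed 3216 runs, 101 of them of 2 or more. The longest run in each direction had 5 tiles. One that fell, chr15:76007001-76012000, stood at 29.999%, 22.9% and 35.6% in the clones and 97.1% in the fibroblasts over 94 positions. A run of 4 tiles at chr7:4980001-4984000, 8048 bases downstream of the start of the zinc finger gene Zfp784, stood at 4.08%, 1.79% and 8.39% in the clones and 90.1% in the fibroblasts over 139 positions. The longest run that rose, chr11:94806001-94811000, stood at 79.5%, 75.8% and 80.6% in the clones and 21.6% in the fibroblasts over 22 positions.

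Over 1270 windows of 1 megabase with at least 30 tiles, the mean tile change was negative in 1074 and positive in 196, with a median of −5.95 points. The window with the largest mean decrease was chr18:37000001-38000000, at 29.9%, 24.5% and 37.2% in the clones and 57.0% in the fibroblasts, where 33 of 83 tiles fell. The second, chr7:20000001-21000000, which holds the starts of the apolipoprotein genes Apoe and Apoc2, stood at 32.3%, 27.0% and 38.2% in the clones and 53.4% in the fibroblasts. The window with the largest mean increase, chr2:178000001-179000000, stood at 69.8%, 67.1% and 76.9% in the clones and 58.3% in the fibroblasts, where 4 of 53 tiles rose.

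Around gene starts little was left to lose. Starts of 10818 genes could be placed among the mm9 positions. Between 0 and 250 bases downstream of a placed start, positions averaged 1.06%, 0.966% and 1.46% in the clones and 1.76% in the fibroblasts. From 5 to 10 kilobases downstream they averaged 39.6%, 35.5% and 46.3% in the clones and 56.3% in the fibroblasts, and from 5 to 10 kilobases upstream 32.5%, 29.1% and 38.5% in the clones and 44.2% in the fibroblasts. The mean change was −0.602 points just downstream of the start and −15.8 points at 5 to 10 kilobases downstream. Positions 10 kilobases or more from any placed start changed less, by −5.91 points.

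**Figure D2:**
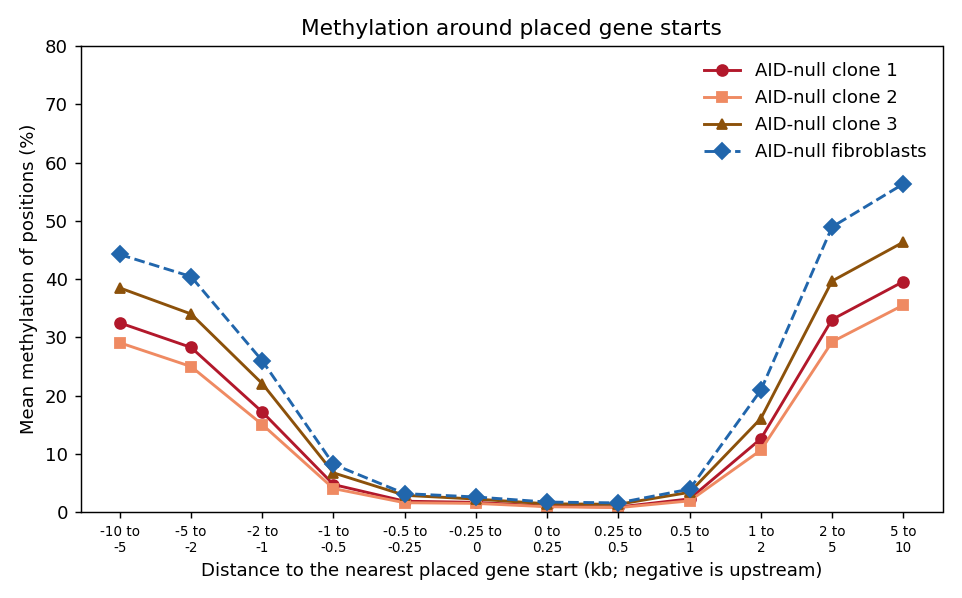
Mean methylation (%) of positions in each AID-null clone (solid lines) and in AID-null fibroblasts (dashed line), by distance to the nearest placed gene start in kilobases (negative is upstream; bins are of unequal width). The 4 libraries lie together near the start, with 1.06%, 0.966% and 1.46% in the clones and 1.76% in the fibroblasts at 0 to 0.25 kb, and stand apart from 1 kb outwards.

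In windows of 300 bases at the placed starts, no gene was called. Of 8972 windows the limma-moderated quasi-binomial test called 0 lower (0%) and 0 higher (0%), with a lowest adjusted p of 0.338. It put 830 windows at an unadjusted p under 0.05, and limma on log2 ratios put 884 there and also called none. Even so, all 3 clones were at least 25 points below the fibroblasts in 155 windows (1.73%) and at least 25 points above in 42 (0.468%). The values of these windows are given without a claim of significance, those of Ddx4, Mael, Igf2r and Hoxd4 above among them.

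Gene starts were then read in the 1000 bp tile that holds them, within the test over all tiles, a step added after the windows had given no call. A tile that holds a start can draw its value from positions well away from the start, although in 165 of the 170 called tiles a position lay within 250 bases of the start. Of 9726 genes tested this way, 140 fell (1.44%) and 30 rose (0.308%), and 88.8% were under 10% in all 4 libraries. Of the 434 genes at 50% or more in the fibroblasts, 101 fell, or 23.3%. Without the test, all 3 clones were at least 25 points lower at 167 starts (1.72%) and at least 25 points higher at 39 (0.401%). Without clone 1, 56 genes fell and 5 rose, without clone 2, 132 fell and 49 rose, and without clone 3, 228 fell and 35 rose. In the 300 bp windows of the genes that fell, where one could be read (116 genes), methylation averaged 11.2%, 10.3% and 22.3% in the clones and 64.9% in the fibroblasts. Window and tile were chosen apart, so for a gene with several placed starts they may lie at different starts.

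Germline genes silenced by methylation were the list with the most decreases. Of 25 listed genes 17 were tested, 11 fell and none rose, while 1.44% of all gene starts fell and 0.308% rose. Of the 15 list members at 50% or more in the fibroblasts 11 fell, against 101 of all 434 such gene starts. The median change was −45.1 points, against a median of 0.0112 points over all 9726 gene starts. All 3 clones lay below the fibroblasts in 16 of the 17, against 30.2% of all gene starts. Counted without a test, all 3 were at least 25 points lower in 12 of the 15 list members that stood at 50% or more in the fibroblasts, against 29.0% of all 434 such gene starts. Without clone 1 the same model called none of the 17, with 9 at an unadjusted p under 0.05, and without clone 3 it called 13. Of all 9726 gene starts 56 fell without clone 1 and 228 without clone 3. With all clones, limma on log2 ratios called 12, edgeR 11 and an exact test of Fisher on summed reads 13. Of all gene starts limma on log2 ratios called 120 lower, edgeR 108 and the test of Fisher 236.

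Ddx4, the germ cell RNA helicase also known as Vasa, stood at 11.5%, 11.6% and 18.8% in the clones and 89.3% in the fibroblasts, a change of −75.4 points (SD 4.20 over clones, adjusted p = 0.00261). Mael, which acts in silencing of transposons by piRNAs, stood at 14.3%, 14.2% and 26.1% in the clones and 90.2% in the fibroblasts (−72.0 points, adjusted p = 0.00497). Tex19.1, a germline gene that is also expressed in pluripotent cells, stood at 17.4%, 9.61% and 51.2% in the clones and 93.6% in the fibroblasts (−67.5 points, SD 22.1, adjusted p = 0.0328). In that tile clone 3 was about midway between the other clones and the fibroblasts. Tdrd1, a Tudor domain protein of the piRNA pathway, stood at 16.1%, 18.4% and 29.0% in the clones and 83.0% in the fibroblasts (−61.8 points, adjusted p = 0.0163). These 4 calls were all lost without clone 1, with adjusted p between 0.0608 and 0.266 and changes of −59.2 to −74.1 points.

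The other 7 genes of the list that fell were D1Pas1, Sycp3, Tuba3a, Slc25a31, Fkbp6, Asz1 and Tuba3b, with changes of −61.7 to −35.8 points. Tuba3a and Tuba3b are near-identical alpha-tubulin genes, so reads of one may have been assigned to the other. The meiosis genes Hormad1 and Sycp1 did not pass the test. Hormad1 stood at 22.9%, 22.2% and 44.7% in the clones and 85.6% in the fibroblasts (adjusted p = 0.0654). Sycp1, of the synaptonemal complex, stood at 53.1%, 49.3% and 60.1% in the clones and 88.7% in the fibroblasts (adjusted p = 0.148). Both were called without clone 3, with adjusted p of 0.0127 and 0.0344.

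Other germline starts did not pass the test. Dazl, a germ cell RNA-binding protein, stood at 8.64%, 7.39% and 18.99% in the clones and 28.9% in the fibroblasts over the 79 positions of its tile (adjusted p = 0.420). The 300 bp window at the Dazl start, with 8 positions, stood higher, at 20.3%, 34.5% and 75.7% in the clones and 96.3% in the fibroblasts. Brdt, a testis bromodomain protein, stood at 85.7%, 83.8% and 85.4% in the clones and 89.6% in the fibroblasts. Clone 3 stood at 85.4% at Tex101, a germ cell surface protein, next to 86.2% in the fibroblasts, while clones 1 and 2 stood at 63.7% and 62.3%. Cpeb1, which controls translation in oocytes, was at most 1.29% in all 4 libraries. Dazl apart, the last 3 were named after their values were seen.

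**Figure D3:**
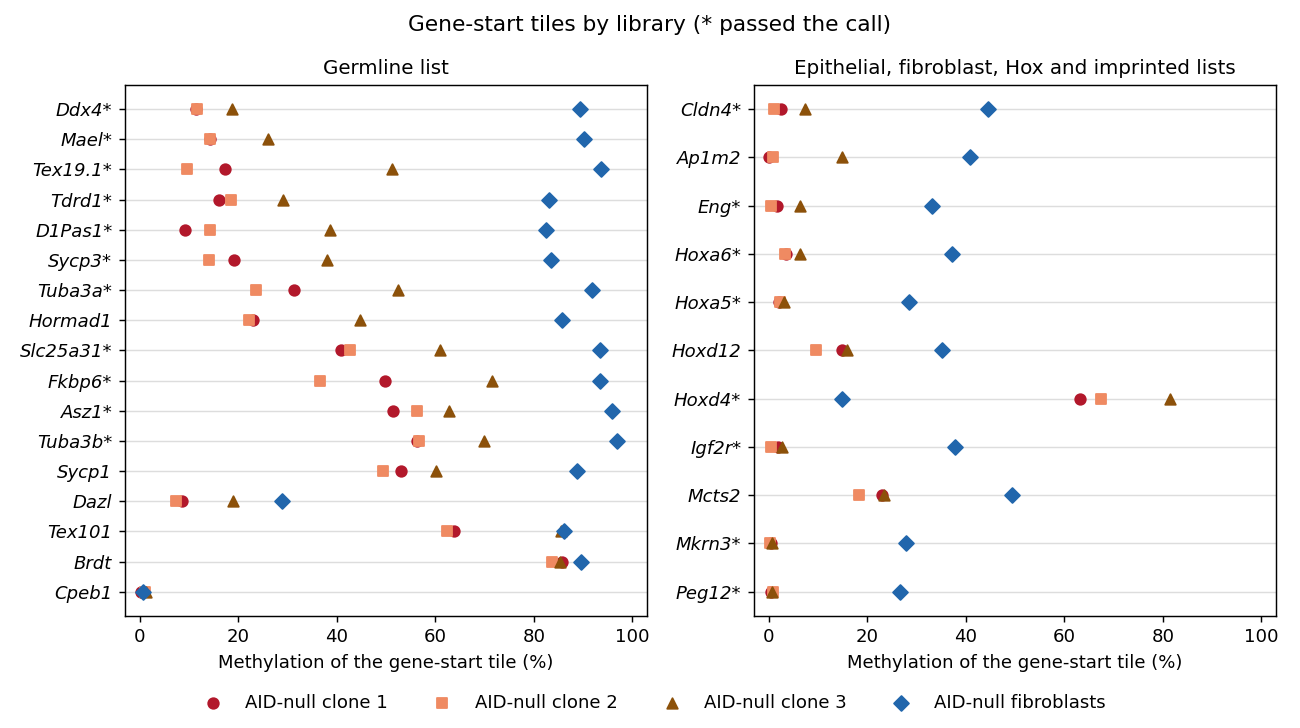
Methylation (%) of the 1000 bp tile that holds the gene start, in AID-null clones 1 to 3 (circle, square, triangle) and in AID-null fibroblasts (diamond), for the 17 tested genes of the germline list and for genes of 4 other lists that were called or differed by at least 20 points. An asterisk marks an adjusted p under 0.05 with a difference of at least 25 points; Ddx4 stood at 11.5%, 11.6% and 18.8% in the clones and 89.3% in the fibroblasts, and Hoxd4 is the one gene shown that was called higher in the clones.

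Beyond the lists, the gene starts with the largest decreases included other genes of germ cells. Sohlh2, a transcription factor of germ cells, stood at 5.66%, 6.54% and 18.7% in the clones and 95.6% in the fibroblasts (adjusted p = 0.00103). Dmrtb1, which in mice controls entry of spermatogonia into meiosis, stood at 10.6%, 8.25% and 21.9% in the clones and 93.2% in the fibroblasts over 44 positions (adjusted p = 0.00160). Rad51c, a recombination repair gene, had the largest change, with 9.67%, 2.81% and 8.06% in the clones and 97.4% in the fibroblasts (adjusted p = 0.000126), but its 11 positions lay 588 bases or more from the start. The 300 bp window read for Rad51c stood at 10.3%, 31.1% and 49.3% in the clones and 92.8% in the fibroblasts. These are also the values of the Tex14 window, so it lay at another placed start, outside this tile.

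Rpl22, a ribosomal protein gene, stood at 0%, 3.35% and 13.7% in the clones and 87.0% in the fibroblasts (adjusted p = 0.00129). Its 6 positions lay 34 to 445 bases from the placed start, and its 300 bp window had too few positions to be read. Rpl22 was expressed in the fibroblasts despite this level, as given below with the RNA values. Whether the tile holds the promoter in use was not tested. Fam178b, CN725425, 1700102P08Rik and Gm52102 completed the 8 largest decreases, from −79.6 to −83.5 points. In each of the 8 all clones lay far below the fibroblasts. As with Rad51c, 2 of these tiles held no position within 250 bases of the start. The positions of Fam178b lay 291 bases or more away, and the 3 positions of 1700102P08Rik 535 bases or more. The fibroblast levels of the genes named by rule rested on a coverage of at least 172, and the 95% Wilson interval was at most 5.57 points to either side; intervals cover counting error only.

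Imprinted genes fell at 3 of 16 tested starts, and none rose, with a median change of −2.11 points, while 1.44% of all gene starts fell. Of the 7 list members at 10% or more in the fibroblasts 3 fell, against 140 of all 858 such gene starts. Without the test, every clone was at least 25 points lower at 4 of the 16. Igf2r, the receptor that clears insulin-like growth factor 2, stood at 1.95%, 0.442% and 2.65% in the clones and 37.8% in the fibroblasts over 57 positions (adjusted p = 0.00163). Mkrn3, a ubiquitin ligase gene expressed from the paternal copy, stood at 0.465%, 0.273% and 0.780% in the clones and 27.9% in the fibroblasts (adjusted p = 0.00152). Peg12, its neighbour, stood at 0.466%, 0.864% and 0.654% in the clones and 26.7% in the fibroblasts over 52 positions (adjusted p = 0.000713). At all 3 starts the clones were nearly unmethylated and close together, while the fibroblast library stood at an intermediate level.

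Other imprinted starts with intermediate levels did not pass the test. Mcts2, the fourth start with every clone at least 25 points lower, stood at 23.1%, 18.4% and 23.4% in the clones and 49.4% in the fibroblasts (adjusted p = 0.245). Plagl1, a zinc finger gene that restrains growth, stood at 34.4%, 29.4% and 21.8% in the clones and 45.2% in the fibroblasts (adjusted p = 0.648). At 9 of the 16 starts all 4 libraries were under 10%. The Igf2r call was lost without clone 1 (adjusted p = 0.0526, −36.3 points).

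Hox genes, which give cells their position along the body axis, moved both ways. Of 13 tested starts 2 fell and 1 rose, against 1.44% that fell and 0.308% that rose of all gene starts. Of the 6 list members at 10% or more in the fibroblasts 2 fell, against 140 of all 858 such gene starts. In either direction edgeR called 3 of the 13, but limma on log2 ratios only 1. Of all gene starts limma on log2 ratios called 120 lower and 29 higher. Hoxa6 stood at 3.59%, 3.33% and 6.28% in the clones and 37.3% in the fibroblasts (adjusted p = 0.0107). Hoxa5, its neighbour, stood at 2.21%, 2.41% and 3.16% in the clones and 28.5% in the fibroblasts (adjusted p = 0.0156). At both starts the 3 clones lay close together, far below the fibroblasts. Hoxd4 stood at 63.1%, 67.4% and 81.4% in the clones and 14.8% in the fibroblasts (adjusted p = 0.00651). Hoxd12 stood at 14.8%, 9.67% and 15.9% in the clones and 35.2% in the fibroblasts (adjusted p = 0.257), and Hoxd10 at 0.562%, 0.640% and 1.06% in the clones and 12.1% in the fibroblasts (adjusted p = 0.00344 but under 25 points). The calls of Hoxa5 and Hoxa6 were lost without clone 1 (adjusted p = 0.448 and 0.358) and without clone 2 (adjusted p = 0.129 and 0.0583), while that of Hoxd4 held without any 1 clone.

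Of the epithelial list 1 of 10 tested starts fell, against 1.44% of all gene starts. Among those at 10% or more in the fibroblasts 1 of 4 fell, against 140 of all 858 such gene starts. In all 10 every clone was lower than the fibroblast library, against 30.2% of all gene starts, but 4 of the 10 were under 1% in all 4 libraries. Cldn4, a tight junction claudin, stood at 2.43%, 1.14% and 7.49% in the clones and 44.5% in the fibroblasts (adjusted p = 0.00415, and 0.0913 without clone 1). Ap1m2, a sorting adaptor of epithelial cells, stood at 0.0715%, 0.822% and 14.9% in the clones and 40.9% in the fibroblasts (adjusted p = 0.0987). Epcam, an epithelial adhesion protein found on pluripotent cells, stood at 0%, 0.404% and 0.930% in the clones and 12.6% in the fibroblasts (adjusted p = 0.0178 but under 25 points). In the 300 bp window at the Epcam start, with 4 positions, levels were 0%, 0.907% and 3.13% in the clones and 41.8% in the fibroblasts, and no window was called. All 3 tiles were nearly unmethylated in clones 1 and 2, and clone 3 was the highest clone. Of the fibroblast matrix and surface list 1 of 8 fell, the only member at 10% or more in the fibroblasts. This was Eng, a TGF-beta co-receptor, at 1.66%, 0.525% and 6.40% in the clones and 33.2% in the fibroblasts (adjusted p = 0.0110, and 0.0996 without clone 1). Among these 8 edgeR called 1 and limma on log2 ratios 0. Col1a2, a chain of type I collagen, stood at 4.25%, 5.87% and 3.00% in the clones and 0.0976% in the fibroblasts (adjusted p = 0.236), and Thbs2, a matrix glycoprotein, at 13.8%, 15.8% and 15.0% in the clones and 3.17% in the fibroblasts (adjusted p = 0.248).

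No gene start of the pluripotency lists was called, of 7 tested core factors and 6 tested later genes. The limma-moderated quasi-binomial test, limma on log2 ratios and edgeR each put 3 of the 13 at an unadjusted p under 0.05 and called none. An exact test of Fisher on summed reads called 1. Of all 115365 tiles the quasi-binomial test put 29478 at an unadjusted p under 0.05. It called 1.44% of all gene starts lower and 0.308% higher, so no call among 13 is close to the background. Sox2, Klf4, Klf2, Stat3 and Tfcp2l1 were under 10% in all 4 libraries. Esrrb, an orphan nuclear receptor of the naive network, stood at 42.1%, 40.1% and 70.2% in the clones and 9.69% in the fibroblasts (+41.1 points, SD 16.8, adjusted p = 0.0865), over 3 positions only. Without clone 2 it was called higher (adjusted p = 0.0282). Nr5a2, another orphan nuclear receptor, stood at 0.340%, 0% and 0.601% in the clones and 6.95% in the fibroblasts (adjusted p = 0.0434 but under 25 points). The starts of Pou5f1, Nanog, Zfp42 and the Dppa genes were not among the tiles tested, so nothing is reported on them.

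The remaining lists gave no call. These were 9 mesenchymal and 17 developmental transcription factors, 5 trophoblast genes, 13 genes of the methylation and demethylation machinery, 4 skeletal muscle genes and 1 macrophage gene, while no keratinocyte gene was tested. Of these 49 the limma-moderated quasi-binomial test put 5 at an unadjusted p under 0.05, limma on log2 ratios 5 and edgeR 6. None of the 3 called any, while Fisher's exact test on pooled reads called 2. The quasi-binomial test put 29478 of all 115365 tiles at an unadjusted p under 0.05. With 1.44% of all gene starts called lower and 0.308% higher, no call among 49 is close to the background. All 13 starts of the machinery list, among them Dnmt1, Dnmt3a, Tet3 and Tdg, were under 10% in all 4 libraries. Myog, a muscle regulator, stood at 35.7%, 39.9% and 71.3% in the clones and 84.2% in the fibroblasts (adjusted p = 0.195, and 0.0307 without clone 3). Acta1, skeletal muscle actin, stood at 46.6%, 48.9% and 58.5% in the clones and 24.9% in the fibroblasts (adjusted p = 0.262). Krt7, a simple epithelial keratin on the trophoblast list, stood at 18.5%, 8.12% and 19.96% in the clones and 32.7% in the fibroblasts (adjusted p = 0.275).

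Gene starts that rose had few CpG sites. The largest increase with a known product was at Dpep1, a dipeptidase, with 82.7%, 72.9% and 78.6% in the clones and 13.0% in the fibroblasts (adjusted p = 0.00317). Cavin4, a caveolar protein of muscle, stood at 82.4%, 77.2% and 85.9% in the clones and 26.5% in the fibroblasts (adjusted p = 0.00539, and 0.0866 without clone 1). With Hoxd4, 3930402G23Rik, Gm20597, 4933401H06Rik, Gm15889 and Gm27572 they made up the 8 largest, from 54.5 to 66.1 points, and the calls of Gm20597, 4933401H06Rik and Gm27572 were also lost without clone 1. The median number of CpG sites in the 300 bases at the start was 9 for the 30 genes that rose, 13 for the 140 that fell and 23 over all 9726.

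A pair of short motifs was counted on both strands of those 300 bases, as a description. TCCCGC, the core of the sites of E2F6, which represses germline genes in mouse embryonic cells, occurred in 8 of the 11 germline list members that fell, in 31.4% of the genes that fell and in 40.1% of all 9726. CACGTG, the E-box bound by Max and its partners, occurred in 6 of the 11, in 15.0% of the genes that fell and in 10.7% of all. Of all 17 tested germline list members, TCCCGC occurred in 11 and CACGTG in 10, so list members that did not fall held both motifs too. Among the 333 genes at 50% or more in the fibroblasts that were not called, TCCCGC occurred in 6.31% and CACGTG in 6.91%; these had a median of 8 CpG sites.

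RNA of the bulk 3-week culture labelled AID-null was set beside these gene starts, since RNA of the clones was not analysed here. There was 1 RNA library per condition, so the values have no replicate check, and the culture is a bulk sample and not the clones. Of the 72 genes with a fallen start and at least 1 FPKM (fragments scaled to transcript length and library size) in either library, 49 were at least 2-fold higher in the 3-week culture than in the fibroblasts, or 68.1%, against 17.3% of the 6910 such genes with a tested start. Genes under 1 FPKM in the fibroblasts can only pass upwards, and they made up 48.7% of the genes with a fallen start and an RNA value, against 12.2% of all such genes. Among genes at 1 FPKM or more in the fibroblasts, 18 of 40 with a fallen start were at least 2-fold higher in the culture (45.0%), against 12.9% of all 6526. Among those under 1 FPKM it was 31 of 32, against 93.0% of all 384. On the log2(FPKM + 1) scale the median change of these 72 genes was 1.53, against −0.08 over all. Of the 8 genes with a risen start 1 passed 2-fold upwards and 3 downwards, the background for the downward direction being 16.1%.

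Single genes show the range. Mael had 73.72 FPKM in the 3-week culture and was listed at 0 in the fibroblasts, and Cldn4 had 259.68 FPKM in the culture and was listed at 0 in the fibroblasts. Sohlh2 had 64.78 FPKM in the culture and was listed at 0 in the fibroblasts. Ddx4 went the other way, with 8.78 FPKM in the culture and 19.64 FPKM in the fibroblasts, although its start was among the most changed. Rpl22 had 768.13 FPKM in the culture and 397.71 FPKM in the fibroblasts, where its tile was highly methylated. Igf2r had 171.09 FPKM in the culture and 144.35 FPKM in the fibroblasts, and Esrrb, whose start was not called, 174.1 FPKM in the culture and 0.35 FPKM in the fibroblasts. Of cell type markers, the 7 of reprogrammed cells summed to 5723 FPKM in the culture and 7.25 FPKM in the fibroblasts, where 4 were at 0. All 7 were higher in the culture, where Dppa5a at 3264 FPKM and Pou5f1 at 1539 FPKM made up most of the sum. Pou5f1 encodes Oct4, a delivered factor, and RNA of the delivered copy was not told apart. The 5 markers of fibroblasts summed to 5151 FPKM in the culture and 62677 FPKM in the fibroblasts. The collagen genes Col1a1 and Col1a2 made up most of the difference in the fibroblast sum, with 1143 and 1900 FPKM in the culture and 30836 and 29183 FPKM in the fibroblasts. Prrx1 stood at 480.3 FPKM in the culture and 491.6 FPKM in the fibroblasts, Thy1 at 1433 FPKM in the culture and 1861 FPKM in the fibroblasts, and Twist1 at 194.5 FPKM in the culture and 305.5 FPKM in the fibroblasts. The macrophage markers, of which 3 of the 4 had values, summed to 67.2 FPKM in the culture and 396.8 FPKM in the fibroblasts, so the fibroblast sample held RNA of these genes; its part in the RNA and methylation differences was not tested. In bulk samples fewer cells of a type and less RNA per cell cannot be told apart.

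**Figure D4:**
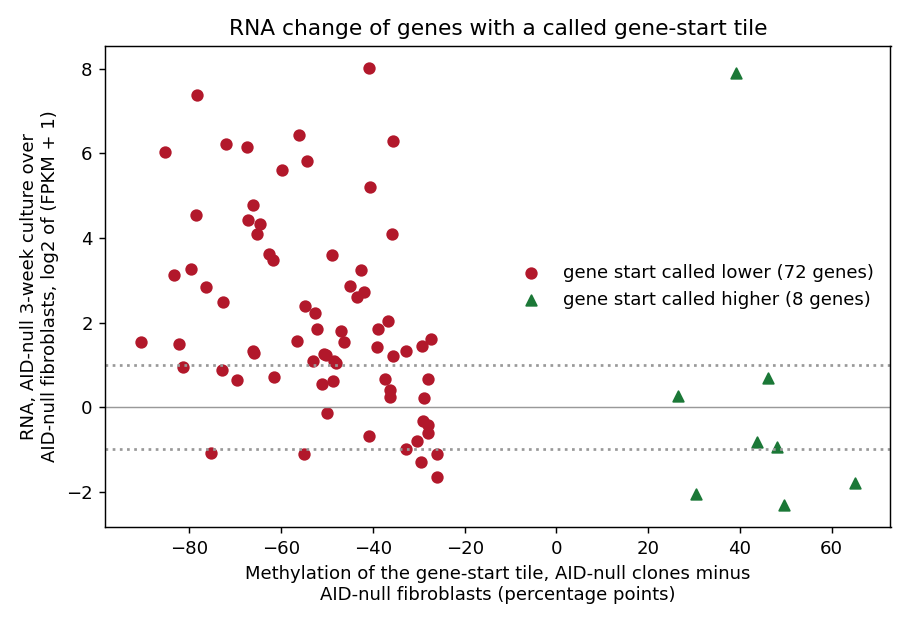
RNA change of single genes between the AID-null 3-week culture and AID-null fibroblasts (difference of log2(FPKM + 1), 1 library each) against the methylation change of the gene-start tile in AID-null clones minus AID-null fibroblasts (percentage points), for genes with a called tile and at least 1 FPKM in either library. Dotted lines mark 2-fold; 49 of the 72 genes with a fallen start lie above the upper line, and 3 of the 8 with a risen start below the lower one.

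The bulk culture held intermediate levels at the called tiles. Over the 7856 tiles that fell and were listed in all 9 libraries, the mean was 20.6%, 17.2% and 32.3% in the clones labelled AID-null, 44.9% in the 3-week culture and 79.3% in the fibroblasts. The 3173 tiles that rose averaged 72.9%, 68.3% and 80.2% in the clones, 47.8% in the culture and 21.2% in the fibroblasts. The culture lay between the clone mean and the fibroblasts in 98.8% of the tiles that fell and 99.5% of those that rose. Over all 109648 tiles it did so in 53.0%. Called tiles were chosen for a wide gap between clones and fibroblasts. Their mean change was −56.0 points where they fell and 52.6 points where they rose, against −6.94 points over all tiles. A wider gap leaves more room for a level in between, so the contrast with 53.0% cannot be told apart from this choice. The culture shares the fibroblast library as its comparison, so these levels are given side by side.

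Clones labelled wildtype had moved the same way in most of these tiles. The tiles that fell averaged 27.2%, 29.2% and 30.04% in wildtype clones and 79.0% in wildtype fibroblasts, and all 3 wildtype clones were at least 25 points lower in 87.7% of them, against 13.7% of all 109648 tiles. The tiles that rose averaged 64.7%, 66.4% and 66.9% in wildtype clones and 23.1% in wildtype fibroblasts, and all 3 were at least 25 points higher in 76.7% of them, against 3.98% of all tiles. Over all tiles wildtype fibroblasts averaged 55.8%. Tiles with little methylation cannot fall by 25 points, and nearly full ones cannot rise by as much. The part of these fibroblast levels in both contrasts was not tested. At the Ddx4 start the wildtype clones stood at 19.6%, 24.4% and 28.4% and the wildtype fibroblasts at 91.5%, and at the Igf2r start at 3.50%, 2.41% and 3.38% and the wildtype fibroblasts at 30.4%.

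**Figure D5:**
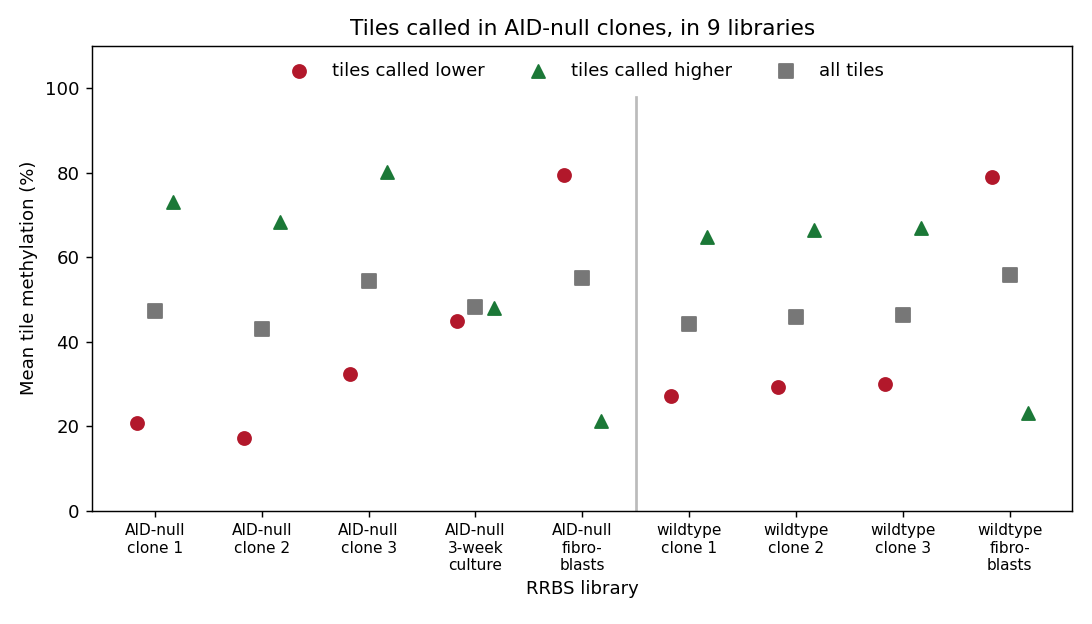
Mean methylation (%) over tiles that were called lower (circles), called higher (triangles) and over all tiles (squares) in the AID-null clones, in each of 9 RRBS libraries. Circles lie at 20.6%, 17.2% and 32.3% in the AID-null clones and 79.3% in AID-null fibroblasts, and at 27.2%, 29.2% and 30.04% in wildtype clones and 79.0% in wildtype fibroblasts.

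Whether the change of the clones labelled AID-null differed from that of the clones labelled wildtype was tested by the interaction over 112054 tiles. The mean change was −7.89, −12.1 and −0.726 points in clones 1 to 3 labelled AID-null, and −11.6, −9.86 and −9.41 points in clones 1 to 3 labelled wildtype. The ranges overlapped, and the clones labelled AID-null covered the wider one. On average the change labelled AID-null was 3.38 points above the change labelled wildtype. Without a test, it was at least 25 points above in 4169 of the 112054 tiles and at least 25 points below in 1550. The limma-moderated quasi-binomial test called 0 tiles lower (0%) and 0 higher (0%), with 3116 at an unadjusted p under 0.05. With limma on log2 ratios 0 were called too, with 6437 at an unadjusted p under 0.05. Each label had 1 fibroblast library, so the lack of calls does not show that the changes were equal. The libraries labelled AID-null and wildtype differed in Y-linked positions as well, with 506 to 648 listed in the clones and fibroblasts labelled AID-null and 32 to 48 in those labelled wildtype, so genotype and sex cannot be told apart.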

How the data were processed

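RRBS calls were deposited per cytosine as coverage, a count of reads, with the percent of reads methylated and unmethylated, at positions of at least 10 reads, per the file headers and values. RNA values were deposited as FPKM per gene. The submitters' processing notes name Bismark, methylKit, TopHat, Cufflinks and mm9; their versions are not given in the sources used here. Whole reads of each kind were worked back from these columns, the deepest positions of each library (over its 99.9th percentile) were dropped, and autosomal tiles of 1000 bp with at least 3 positions in all 4 libraries were summed. Each tile was fitted with a quasi-binomial model (Python 3.11.15, scipy 1.17.1), its dispersion moderated by squeezeVar of limma 3.58.1 (R 4.3.3) following a trend with the information in the reads and kept at 1 or more, and tested by a likelihood-ratio F test with Benjamini-Hochberg adjustment. A call needed an adjusted p under 0.05 and 25 points. Alternatives were edgeR 4.0.16, limma on log2 ratios, and an exact test of Fisher on summed reads. The scripts were tested on simulated data; with few changed tiles among many, false calls ran somewhat above the nominal share.

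The RefSeq promoter table (GRCm38.p6) holds 32851 stretches of 300 bases of 27025 genes. A stretch was placed where the spacing of its CpG sites matched mm9 positions of its own chromosome better than any other place, and no coordinate was converted. Placed in all were 12343 stretches of 10818 genes. The search was repeated on a wrong chromosome as a gauge of false placements. There 15 stretches met the same criteria in the first pass, against 10250 placed on their own chromosome. In a second pass between placed neighbours 39 did so, against 2139. A tile can hold the starts of several genes.

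The genes named were the 8 largest called decreases and increases that all 3 clones shared, and in each of 14 lists up to 4 called and 2 uncalled members, with Dazl always named. Of tiles the 6 largest each way were chosen, and of runs and windows the 3 largest. The rule was written for promoter windows and was applied to the tiles that hold gene starts. The members, lists and tests were chosen with earlier results of these data known, the dispersion trend among them. RNA was compared on log2(FPKM + 1) with no test. RRBS of the wildtype 3-week culture was not used here. The RNA level of the targeted gene is not reported here.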

Additional observations from a re-analysis of the deposited data

How the results depend on the processing

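Calls over tiles (8106 lower, 3323 higher) and over gene-start tiles (140 lower, 30 higher), a readout added after the data were seen, kept their directions but not their numbers. Fisher's exact test on pooled reads, which ignores the spread between clones, gave 18890 lower and 7731 higher tiles, 236 and 69 gene starts, and 204 lower and 66 higher promoter windows where the model called 0. With no dispersion trend 0 tiles and 0 gene starts were called in either direction, with a lowest adjusted p of 0.0559. Tiles of 500 bp gave 5067 lower and 1808 higher, and 80 and 14 gene starts. A minimum of 5 positions gave 1664 higher tiles and edgeR 1906. Leaving out 1 clone gave 3177 to 15915 lower and 1041 to 4747 higher tiles, and 56 to 228 lower and 5 to 49 higher gene starts; with 2 clones left the spread rests on 1 difference. Of the tiles called lower, 98.4% were also called without clone 3 and 38.9% without clone 1. For the tiles called higher these shares were 89.3% and 30.7%. With edgeR 73.9% of the lower and 53.8% of the higher tiles were also called. The remaining alternatives (limma, 20 reads per position, no upper coverage limit, 2000 bp tiles, 10 or 40 points, sex chromosomes kept, chromosome 1 left out) stayed within 1.5 times in number. The tiles were not all the same ones. With limma 81.6% of the lower and 81.7% of the higher tiles were also called, and 71.8% of its own lower tiles were among the main calls. The mean change was −9.00 points over pooled reads and −6.67 to −3.41 points with 1 clone left out. Of 65 named tiles and genes, none that was called changed direction with 1 clone left out. In each of these all 3 clones lay on the same side of the fibroblasts, so none could. Lcp1, not called, stood at 0%, 0.963% and 3.96% in the clones and 1.31% in the fibroblasts, and its direction turned without clone 3. With 20 reads per position 64 had a value (Fam178b had none), and no call among them changed direction. Without clone 1, 13 calls were lost, and without clone 2, 2 were lost. Gained were 2 calls without clone 2 and 4 without clone 3. The cause of these shifts was not tested. Clone numbers did not pair the genotypes (correlations of same-numbered deviations of 0.0165, −0.0176 and 0.0501), and the interaction with the replicate block called 0 tiles, with 3777 at an unadjusted p under 0.05. The lone fibroblast library limits every comparison, since a level peculiar to it cannot be told apart from the change in the clones.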
